A study of Arabidopsis thaliana with 6 samples.

Results

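The 41 genes described here encode the nuclear subunits of the photosystems and of the photosynthetic electron transport chain in Arabidopsis thaliana, among 32833 genes in the deposited count table. They were listed by gene identifier for the protein they encode, with earlier results of these data known, and all 41 were found. The rule itself uses no measured value. By complex they comprised 12 subunits of photosystem I, 12 of photosystem II, 5 minor antenna proteins, 7 electron carriers, 2 ATP synthase subunits and 3 proteins of cyclic electron flow.

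Transcripts were counted by RNA sequencing in 6 libraries from whole seedlings, with 3 libraries of the mutant gi-2 and 3 of the wild type Col-0. The gi-2 line carries a mutant allele of GIGANTEA (GI), a gene of the circadian clock and of photoperiodic flowering. All seedlings were 7 d old, grown on 0.5x MS medium at 22 °C under short days (8 h light, then 16 h darkness) with light of 80 µmol m-2 s-1. Each library came from a pool of 40 to 60 seedlings frozen at ZT 0, when the lights come on after the long night. A single allele was compared with a single wild type at that time of day.

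In oxygenic photosynthesis, photosystem II takes electrons from water and passes them through the cytochrome b6f complex and plastocyanin to photosystem I, which reduces ferredoxin. Ferredoxin-NADP reductase then makes NADPH, the chloroplast ATP synthase uses the proton gradient, and cyclic flow returns electrons from ferredoxin to the chain. The reaction centre proteins are made in the chloroplast, whereas the genes described here lie in the nucleus.

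Library totals ran from 18739317 to 23617717 counts. GI transcript stood at 8.30, 8.79 and 6.96 CPM in gi-2 and 3.77, 2.90 and 2.68 CPM in Col-0, so GI differed by 1.37 on the log2 scale (SE 0.21, adjusted p = 0.000168 by edgeR). Counts over the whole gene do not show whether the allele makes protein. In a principal component analysis the first axis (64.8% of variance) separated gi-2 from Col-0. On the next (14%) the Col-0 libraries spread to both sides of gi-2. Col-0 replicate 1 stood at 28.3, Col-0 replicates 2 and 3 at -12.8 and -19.7, and the gi-2 libraries between -0.707 and 3.30. Col-0 replicate 1 had the smallest total and the fewest genes detected, 21345 against 22185 to 22308 in the other libraries. The seedlings hold several organs, and no marker gene on the lists for root, vasculature, guard cells or seed was at 0 in every library. The 4 seed storage and oil body markers were called higher in gi-2, with summed levels of 18.7, 359 and 60.5 CPM across gi-2 replicates 1, 2 and 3, against 1.16 to 10.6 CPM in Col-0. Of these OLEO2 overlapped between genotypes, at 2.13, 10.9 and 1.45 CPM in gi-2 and 0.443, 1.96 and 0.758 CPM in Col-0. The 11 root markers summed to 2535 to 2723 CPM in gi-2 and 3783 to 4198 CPM in Col-0, mostly from the myrosinase gene PYK10, and CASP1 and MYB36 were called higher and COBL9 and PYK10 lower. The 4 vasculature markers summed to 202 to 217 CPM in gi-2 and 183 to 196 CPM in Col-0, and the 4 guard cell markers to 47.3 to 55.7 CPM and 58.6 to 71.7 CPM. Of these, SUC2 of the phloem was called higher, and IRX3 of the xylem and KAT1 of guard cells lower. The part of these differences in the results was not tested.

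Most photosystem and electron transport transcripts were less abundant in gi-2 at dawn. Of the 41 genes, 27 fell and 2 rose, while 12 were not called at an adjusted p under 0.05 (edgeR quasi-likelihood test, Benjamini-Hochberg adjustment over all genes tested). Among all 19699 genes tested, 32.6% were called, 16.3% higher and 16.2% lower, so the share of the 41 that fell (65.9%) stood above the background share and the share that rose (4.88%) below it. Most of these transcripts are abundant, and among the 1784 genes of at least 100 CPM on average 60.8% were called, with 30.2% higher and 30.6% lower. By complex, the share that fell was 58.3% for photosystem I, 66.7% for photosystem II and 40% for the minor antenna. It was 85.7% for electron carriers, 100% for the ATP synthase and 66.7% for cyclic electron flow. The median log2 fold change, gi-2 over Col-0, was -0.40 over the 41 genes and 0.00 over all genes tested. Their summed share of all counts was 4.145%, 4.53% and 4.576% in the gi-2 replicates and 4.881%, 5.267% and 5.496% in the Col-0 replicates, each in order, so the genotypes did not overlap. Because these are bulk samples, fewer green cells and less transcript per cell cannot be told apart.

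The falls were moderate for most members. Of the 27 genes that fell, 15 did so by over 1.5-fold and 4 of those by over 2-fold, namely PSB28, ATPD, FD1 and PSAH2. These are 36.6% and 9.76% of the 41 genes, where 8.04% and 2.71% of all genes tested fell by as much. Neither of the 2 genes that rose, PSAE2 and PSBQ2, exceeded 1.5-fold. For 32 of the 41 genes no gi-2 library lay within the Col-0 range or the reverse, 28 lower and 4 higher in gi-2, where 45.3% of all genes tested did not overlap. By direction, 4403 of the 19699 genes tested were lower and 4517 higher without overlap. Absence of overlap was more common among abundant genes. Of the 1784 genes of at least 100 CPM on average, 633 were lower and 616 higher without overlap. Replicate 1 was the lowest gi-2 library for 37 of the 41 genes, and Col-0 replicate 1 was the lowest Col-0 library for 26. Replicate 3 was the highest gi-2 library for 30 of the 41 genes and the highest Col-0 library for 27. Such counts were not taken over all genes tested.

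**Figure D1:**
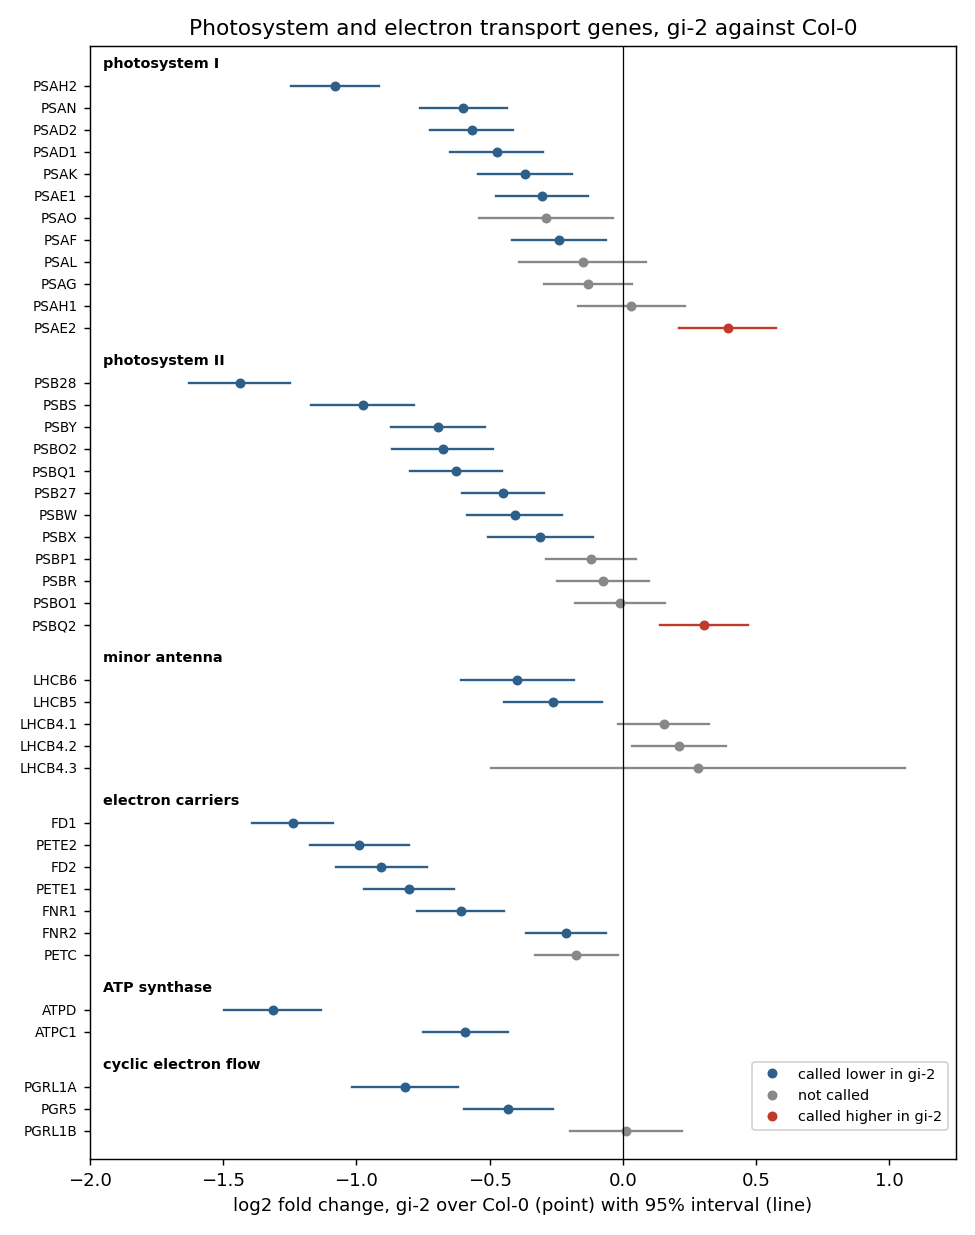
Log2 fold change, gi-2 over Col-0 (horizontal axis), of each of the 41 genes, grouped by complex, with points for the edgeR estimate and bars for the 95% interval. Most points lie left of 0, the electron carriers and ATP synthase subunits between -1.31 and -0.17, whereas PSAE2 and PSBQ2 are called to the right at 0.39 and 0.31.

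The 250 bases upstream of each annotated gene start were searched on both strands for 5 motifs found in promoters of light-regulated or clock-regulated plant genes, namely the G-box (CACGTG), the evening element (AAAATATCT), the CCA1-binding site (AAAAATCT), the I-box (GATAAG) and the CCAATC box (CCAATC). None of these motifs contains another. The G-box stood upstream of 8 of the 41 genes (19.5%), against 6.49% of all 27443 protein-coding promoters of the same length. The I-box stood upstream of 11 (26.8%, against 12.3%), the CCAATC box of 7 (17.1%, against 10.2%), the CCA1-binding site of 3 (7.32%, against 6.69%) and the evening element of 1 (2.44%, against 2.36%). The genes with a G-box were PSAE2, PSAH2, PSBQ1, PSBQ2, PSB28, LHCB4.1, LHCB6 and ATPD. They held both genes that rose, 5 that fell and 1 that was not called, so the motif stood beside changes in either direction. The windows of PSAE2, PSAH2, PSBQ1, LHCB6 and ATPD overlapped a neighbouring annotated gene, and those of PSBQ2, PSB28 and LHCB4.1 did not. Windows were not trimmed at neighbouring genes, for the members or for all promoters. Of the 21 genes with at least 1 motif, 14 fell and 2 rose, and of the 20 with none, 13 fell.

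The windows of 4 genes are printed for their motifs. Those of PSBQ2, which rose, PSB28, which had the largest fall, and LHCB4.1, which was not called, show a G-box beside unlike changes, and that of ATPC1, which fell, holds the evening element. They were read 5′ to 3′ on the gene's strand from the RefSeq TAIR10.1 genome, and capitals mark the motifs searched. The windows are chr4:2673244-2673493 on the minus strand, chr4:14149599-14149848 on the plus strand, chr5:208616-208865 on the plus strand and chr4:2352026-2352275 on the minus strand.
PSBQ2: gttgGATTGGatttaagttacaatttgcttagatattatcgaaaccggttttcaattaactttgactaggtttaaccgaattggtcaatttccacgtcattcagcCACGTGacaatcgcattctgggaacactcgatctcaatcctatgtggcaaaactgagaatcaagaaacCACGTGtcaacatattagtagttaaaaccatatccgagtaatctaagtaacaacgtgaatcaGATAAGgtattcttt
PSB28: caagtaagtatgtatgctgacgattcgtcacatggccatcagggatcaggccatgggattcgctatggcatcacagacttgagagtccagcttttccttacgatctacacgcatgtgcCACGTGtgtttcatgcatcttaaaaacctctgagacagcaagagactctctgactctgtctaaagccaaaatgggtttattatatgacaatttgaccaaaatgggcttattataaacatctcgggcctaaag
LHCB4.1: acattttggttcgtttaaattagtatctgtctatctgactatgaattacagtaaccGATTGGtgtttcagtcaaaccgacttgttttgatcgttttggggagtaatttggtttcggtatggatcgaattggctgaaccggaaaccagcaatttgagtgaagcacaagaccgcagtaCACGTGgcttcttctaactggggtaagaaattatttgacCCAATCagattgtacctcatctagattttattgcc
ATPC1: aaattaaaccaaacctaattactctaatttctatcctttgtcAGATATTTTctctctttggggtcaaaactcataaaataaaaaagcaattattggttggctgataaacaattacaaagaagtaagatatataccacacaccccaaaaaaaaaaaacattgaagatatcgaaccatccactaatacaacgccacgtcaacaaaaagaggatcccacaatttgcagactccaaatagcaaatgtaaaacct
In the PSBQ2 window the G-box began 145 and 77 bases upstream of the annotated start, with an I-box at 15 bases and a CCAATC box at 246 bases. The G-box of PSB28 began at 132 bases and that of LHCB4.1 at 74 bases, where CCAATC boxes stood at 194 and 35 bases. The evening element of ATPC1 began at 208 bases.

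Photosystem I transcripts fell in 7 of 12 cases and rose in 1, with a median log2 fold change of -0.30. PSAH2 (AT1G52230, chr1:19454798-19455668), for a subunit on the side of photosystem I where light-harvesting complex II docks during state transitions, stood at 378, 422 and 436 CPM in gi-2 and 849, 875 and 889.9 CPM in Col-0. Every gi-2 library lay far below every Col-0 library, and the log2 fold change of -1.08 (SE 0.08, adjusted p = 1.51e-07 by edgeR) was the largest fall of the complex. Its paralog PSAH1 (AT3G16140) stood at 489.7, 511 and 543 CPM in gi-2 and 429, 525 and 555 CPM in Col-0, overlapping, with a log2 fold change of 0.03 (95% interval -0.17 to 0.23).

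PSAN (AT5G64040), a lumenal subunit at the plastocyanin docking side, stood at 839, 939 and 928 CPM in gi-2 and 1388, 1377 and 1331 CPM in Col-0. The genotypes did not overlap, with a log2 fold change of -0.60 (SE 0.08, adjusted p = 3.23e-05 by edgeR). The paralogs PSAD1 (AT4G02770) and PSAD2 (AT1G03130), for the stromal subunit at which ferredoxin docks, fell by closely similar amounts, with log2 fold changes of -0.47 (SE 0.08) and -0.57 (SE 0.07).

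PSAE, another stromal subunit of the ferredoxin docking site, had copies that changed with opposite sign. PSAE2 (AT2G20260, chr2:8736734-8737767) stood at 540.3, 571 and 609 CPM in gi-2 and 394, 438 and 477 CPM in Col-0. All gi-2 libraries were above all Col-0 libraries, with a log2 fold change of 0.39 (SE 0.08, adjusted p = 0.00241 by edgeR). PSAE1 (AT4G28750) stood at 299.7, 293 and 322 CPM in gi-2 and 358, 355 and 416 CPM in Col-0 and fell, with a log2 fold change of -0.30 (SE 0.08, adjusted p = 0.0106 by edgeR). That call was lost without gi-2 replicate 2 (adjusted p = 0.0589, and 0.00115 to 0.0589 over 16 alternative fits).

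Smaller falls were measured for PSAK (AT1G30380), a peripheral subunit near the antenna, at -0.37 (SE 0.08), and for PSAF (AT1G31330), which binds plastocyanin, at -0.24 (SE 0.08) on the log2 scale. The PSAF call (edgeR, adjusted p = 0.0367) was lost when any of gi-2 replicates 1, 2 and 3 or Col-0 replicates 2 and 3 was left out, with adjusted p-values of 0.108, 0.0958, 0.0761, 0.0616 and 0.148 in that order, within a range of 0.00325 to 0.148 over 16 alternatives. PSAG (AT1G55670), a peripheral subunit beside the antenna, had a log2 fold change of -0.13 (95% interval -0.30 to 0.04) and was not called.

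PSAL (AT4G12800) and PSAO (AT1G08380), which lie with PSAH on the side where light-harvesting complex II docks, varied widely between the Col-0 libraries. PSAL stood at 1393, 1446 and 1498 CPM in gi-2 and 1307, 1589.9 and 1917 CPM in Col-0, and the gi-2 values lay inside the Col-0 range. PSAO stood at 694, 757 and 814 CPM in gi-2 and 734, 940.1 and 1094 CPM in Col-0, also overlapping. Their log2 fold changes were -0.15 (95% interval -0.39 to 0.09) and -0.29 (95% interval -0.54 to -0.04), and neither was called. Without Col-0 replicate 1, PSAL was called at -0.29 (edgeR, adjusted p = 0.00684, and 0.00684 to 0.98 over 16 alternatives) and PSAO at -0.44 (adjusted p = 0.000303, and 0.000303 to 0.327). With all 6 libraries PSAO was also called by DESeq2 (adjusted p = 0.0328) and by edgeR with no low-count filter (adjusted p = 0.0313).

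Photosystem II transcripts fell in 8 of 12 cases and rose in 1, with a median log2 fold change of -0.43. The oxygen-evolving complex, whose extrinsic proteins shield the manganese cluster in the lumen, held copies that fell, a copy that rose and copies that were not called. PSBO1 (AT5G66570), the main copy of the manganese-stabilising protein, stood at 4622, 4991 and 5111 CPM in gi-2 and 4781, 4906 and 5143 CPM in Col-0. The genotypes overlapped, with a log2 fold change of -0.01 (95% interval -0.18 to 0.16; edgeR, adjusted p = 0.941). Its paralog PSBO2 (AT3G50820) stood at 564, 686 and 694 CPM in gi-2 and 981, 1081 and 1043 CPM in Col-0 and fell without overlap, with a log2 fold change of -0.68 (SE 0.09, adjusted p = 4.56e-05 by edgeR).

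PSBQ is a further extrinsic protein. PSBQ1 (AT4G21280) stood at 533, 599 and 587 CPM in gi-2 and 821, 895 and 935 CPM in Col-0, and PSBQ2 (AT4G05180, chr4:2671523-2673243) at 1768, 1884 and 1969.7 CPM in gi-2 and 1460.4, 1518 and 1571 CPM in Col-0. The copies moved in opposite directions, each without overlap, with log2 fold changes of -0.63 (SE 0.08, adjusted p = 3.47e-05 by edgeR) and 0.31 (SE 0.08, adjusted p = 0.00707 by edgeR). The PSBQ2 call was lost without gi-2 replicate 3 at a log2 fold change of 0.26 (adjusted p = 0.0550, and 6.21e-05 to 0.0550 over 16 alternatives). PSBP1 (AT1G06680), the remaining extrinsic protein, and PSBR (AT1G79040), needed for its stable assembly, were not called, with log2 fold changes of -0.12 (95% interval -0.29 to 0.05) and -0.07 (95% interval -0.25 to 0.10).

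The largest fall of all 41 genes was that of PSB28 (AT4G28660, chr4:14149849-14151163), whose cyanobacterial counterpart binds photosystem II assembly intermediates. It stood at 21.9, 24.6 and 25.9 CPM in gi-2 and 67.0, 64.8 and 64.2 CPM in Col-0, with tight and well separated genotypes and a log2 fold change of -1.44 (SE 0.09, adjusted p = 3.94e-08 by edgeR). PSB27 (AT1G03600), a lumenal protein that also acts in assembly and repair, fell less, with a log2 fold change of -0.45 (SE 0.07, adjusted p = 0.000238 by edgeR).

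PSBS (AT1G44575, chr1:16870221-16873427), the sensor of lumen acidity that triggers energy-dependent quenching of excess light, stood at 403, 492 and 485 CPM in gi-2 and 841, 929 and 945 CPM in Col-0. No gi-2 library came near the Col-0 range, with a log2 fold change of -0.98 (SE 0.09, adjusted p = 1.63e-06 by edgeR). The small membrane subunits PSBY (AT1G67740), PSBW (AT2G30570) and PSBX (AT2G06520) fell too, with log2 fold changes of -0.69, -0.40 and -0.31 (SE 0.08, 0.08 and 0.09). The PSBX call (edgeR, adjusted p = 0.0188) was lost without gi-2 replicate 1, gi-2 replicate 2 or Col-0 replicate 3 (adjusted p = 0.0853, 0.0537 and 0.0821, and 0.00112 to 0.0853 over 16 alternatives).

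The minor antenna proteins sit singly between the photosystem II core and the trimeric antenna. Of their 5 genes 2 fell and none rose, and the median log2 fold change was 0.15, or -0.01 without gi-2 replicate 1. That second median is the value of LHCB4.3, with 26 to 63 counts per library, while LHCB4.2 stood at 0.26 in the same fit. The median therefore says little about the group. The share called was 40.0%, against 32.6% of all genes tested and 60.8% of genes of at least 100 CPM on average. LHCB6 (AT1G15820) stood at 1500.0, 1798 and 1868 CPM in gi-2 and 2027, 2306 and 2461 CPM in Col-0 and fell without overlap, with a log2 fold change of -0.40 (SE 0.10, adjusted p = 0.00661 by edgeR). LHCB5 (AT4G10340) stood at 3506, 4010.4 and 4169 CPM in gi-2 and 4527, 4615 and 4860.3 CPM in Col-0 and fell, with a log2 fold change of -0.26 (SE 0.09, adjusted p = 0.0304 by edgeR). The LHCB5 call was lost without gi-2 replicate 1, gi-2 replicate 2, Col-0 replicate 2 or Col-0 replicate 3 (adjusted p = 0.112, 0.0750, 0.0771 and 0.0892, and 0.00288 to 0.112 over 16 alternatives).

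The highly expressed LHCB4 copies gave values on the other side of 0. LHCB4.1 (AT5G01530) stood at 3155, 3408 and 3439 CPM in gi-2 and 2818, 3015 and 3154 CPM in Col-0, and LHCB4.2 (AT3G08940) at 3406, 3810.4 and 3907 CPM in gi-2 and 3047, 3247 and 3307 CPM in Col-0. In both, every gi-2 library was above every Col-0 library, for LHCB4.1 only narrowly, yet neither was called, with log2 fold changes of 0.15 (95% interval -0.02 to 0.33) and 0.21 (95% interval 0.04 to 0.39). LHCB4.2 lay close to the threshold. With all 6 libraries it was called by DESeq2 (adjusted p = 0.0150), by limma-voom (adjusted p = 0.0358) and by edgeR with library totals only (adjusted p = 0.0268). It was also called by edgeR without gi-2 replicate 1 (adjusted p = 0.0345), and over 16 alternatives the adjusted p ran from 0.0150 to 0.250. LHCB4.3 (AT2G40100) had only 26 to 63 counts per library and a log2 fold change of 0.28 (95% interval -0.50 to 1.06), so neither sign was settled and a change within that interval could not be told from none.

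Electron carriers fell in 6 of 7 cases, with a median log2 fold change of -0.80. Plastocyanin, the lumenal copper protein that feeds photosystem I, is encoded by PETE1 (AT1G76100) and the more abundant PETE2 (AT1G20340, chr1:7042046-7043392). PETE2 stood at 1228, 1383 and 1424 CPM in gi-2 and 2903, 2586 and 2521 CPM in Col-0, and PETE1 at 127, 139.8 and 139 CPM in gi-2 and 227, 225 and 256 CPM in Col-0. Neither gene's genotypes overlapped, and the log2 fold changes were -0.99 (SE 0.09, adjusted p = 1.09e-06 by edgeR) and -0.80 (SE 0.08, adjusted p = 3.22e-06 by edgeR).

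Ferredoxin, the iron-sulphur protein reduced by photosystem I, fell in both leaf copies. FD1 (AT1G10960, chr1:3664187-3665040) stood at 98.0, 96.2 and 104 CPM in gi-2 and 239, 231 and 234 CPM in Col-0, and FD2 (AT1G60950), the main copy, at 873, 927 and 938 CPM in gi-2 and 1829, 1582 and 1721 CPM in Col-0. All gi-2 libraries lay well under all Col-0 libraries, with log2 fold changes of -1.24 (SE 0.07, adjusted p = 1.97e-08 by edgeR) and -0.91 (SE 0.08, adjusted p = 1.09e-06 by edgeR).

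The ferredoxin-NADP reductase copies, which make NADPH, fell less. FNR1 (AT5G66190) stood at 242, 272 and 284 CPM in gi-2 and 404, 408 and 404 CPM in Col-0, with a log2 fold change of -0.61 (SE 0.08, adjusted p = 2.94e-05 by edgeR). FNR2 (AT1G20020) stood at 151, 163 and 158 CPM in gi-2 and 183, 184 and 179.8 CPM in Col-0, with a log2 fold change of -0.21 (SE 0.07, adjusted p = 0.0295 by edgeR). Both were separated between genotypes, but the FNR2 call was lost without gi-2 replicate 1, 2 or 3 or Col-0 replicate 2 (adjusted p = 0.108, 0.0551, 0.0855 and 0.0808, and 0.0135 to 0.108 over 16 alternatives).

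PETC (AT4G03280), the Rieske iron-sulphur protein of the cytochrome b6f complex, was the carrier gene that was not called. It stood at 562, 605 and 621 CPM in gi-2 and 666, 673 and 677 CPM in Col-0, lower in every gi-2 library, with a log2 fold change of -0.17 (95% interval -0.33 to -0.02; edgeR, adjusted p = 0.0814). It was called by DESeq2 (adjusted p = 0.0312) and by edgeR without Col-0 replicate 1 (adjusted p = 0.0288, and 0.0288 to 0.239 over 16 alternatives).

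**Figure D2:**
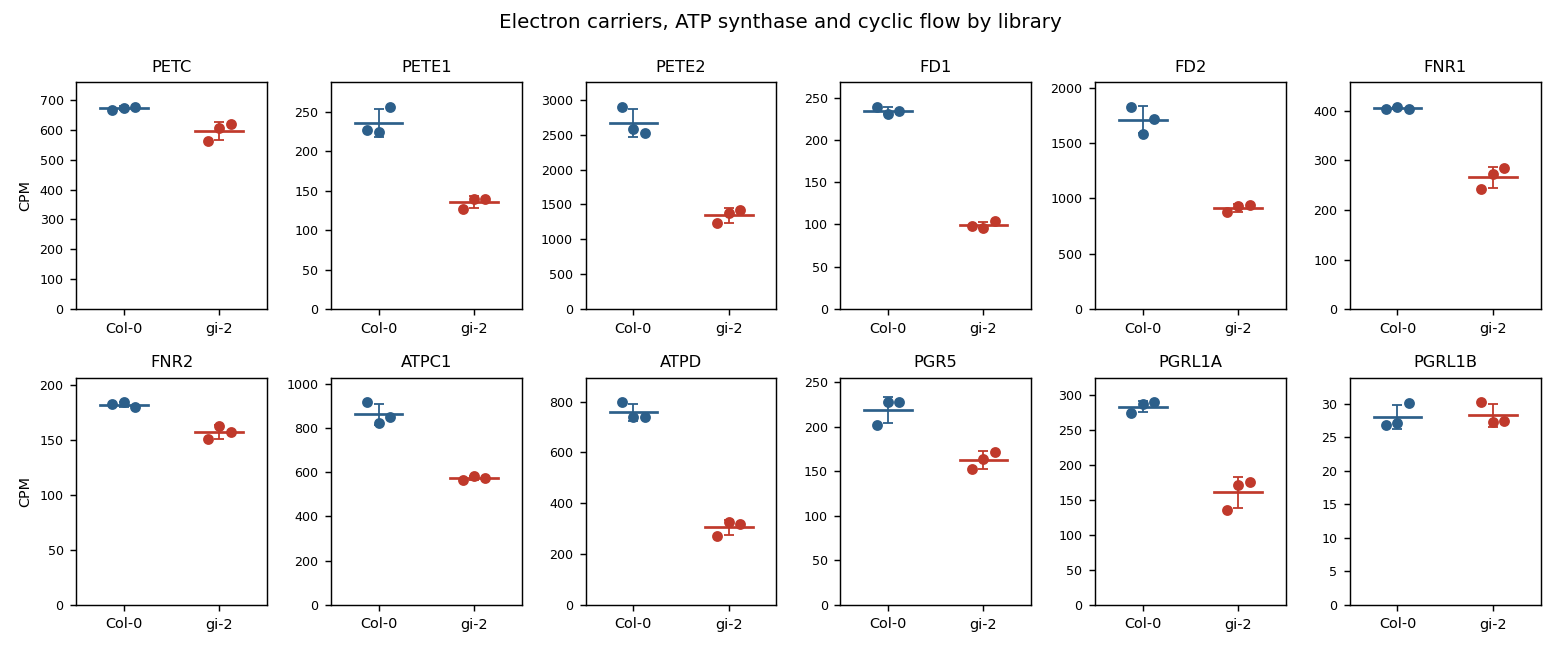
Level in TMM-scaled CPM (vertical axes, each from 0) of the 12 genes of electron carriers, ATP synthase and cyclic flow in the 3 Col-0 and 3 gi-2 libraries, with points for libraries and lines with bars for the mean and SD. The genotypes are apart in every panel except that of PGRL1B, and the gap is widest relative to level for ATPD and FD1.

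Both listed ATP synthase genes fell. ATPD (AT4G09650, chr4:6100714-6101864), for the delta subunit that joins the catalytic head to the peripheral stalk, stood at 271, 326 and 318 CPM in gi-2 and 797, 739 and 739 CPM in Col-0, and its log2 fold change was -1.31 (SE 0.08, adjusted p = 5.43e-08 by edgeR). ATPC1 (AT4G04640), for the gamma subunit that carries the redox switch of the enzyme, stood at 564, 582 and 572 CPM in gi-2 and 916, 821 and 849 CPM in Col-0, with a log2 fold change of -0.59 (SE 0.07, adjusted p = 2.79e-05 by edgeR). For neither gene did the genotypes overlap.

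Of the genes of the antimycin-sensitive route of cyclic electron flow, PGR5 (AT2G05620) stood at 152, 164 and 171 CPM in gi-2 and 202, 227 and 227 CPM in Col-0 and fell, with a log2 fold change of -0.43 (SE 0.08, adjusted p = 0.000706 by edgeR). PGRL1A (AT4G22890), for a membrane partner of PGR5, stood at 135, 171 and 176 CPM in gi-2 and 274, 287 and 289 CPM in Col-0 and fell further, with a log2 fold change of -0.82 (SE 0.09, adjusted p = 1.18e-05 by edgeR). Its less abundant paralog PGRL1B (AT4G11960) stood at 30.2, 27.3 and 27.4 CPM in gi-2 and 26.9, 27.1 and 30.1 CPM in Col-0, overlapping, with a log2 fold change of 0.01 (95% interval -0.20 to 0.22).

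Summed over the listed genes of each complex, transcripts of the carriers and of the ATP synthase were reduced furthest. The ATP synthase sum holds only ATPC1 and ATPD. ATPG, a stalk subunit of that enzyme kept on another list, fell by less than either (log2 fold change -0.43). A sum that includes ATPG was not computed, so the order of the complexes holds only for the genes listed. The carriers summed to 3281, 3586 and 3668 CPM in gi-2 and 6451, 5890 and 5993 CPM in Col-0, and the gi-2 mean was 57.46% of the Col-0 mean. ATP synthase transcripts summed to 835, 908 and 890.2 CPM in gi-2 and 1714, 1560.3 and 1587 CPM in Col-0, or 54.16%. Cyclic flow transcripts were at 66.29% of Col-0, those of photosystem I at 79.57% and those of photosystem II at 87.77%, and in each of these sums the genotypes did not overlap. Sums weigh abundant genes most. PSBO1, PSBP1 and PSBR, none of them called, averaged 4943, 2899 and 3228 CPM of the 19526 CPM of photosystem II in Col-0. By the median log2 fold change the photosystems stood in the other order, with -0.43 for photosystem II and -0.30 for photosystem I.

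The minor antenna sum was 11570.2, 13028 and 13384 CPM in gi-2 and 12421, 13184 and 13783 CPM in Col-0. Those ranges overlapped, and the gi-2 mean was 96.43% of the Col-0 mean. Differences between complexes were given as values and not tested, because the members of each were chosen with earlier results of these data known. Within gi-2, replicate 1 had the lowest sum for each of the 6 complexes.

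**Figure D3:**
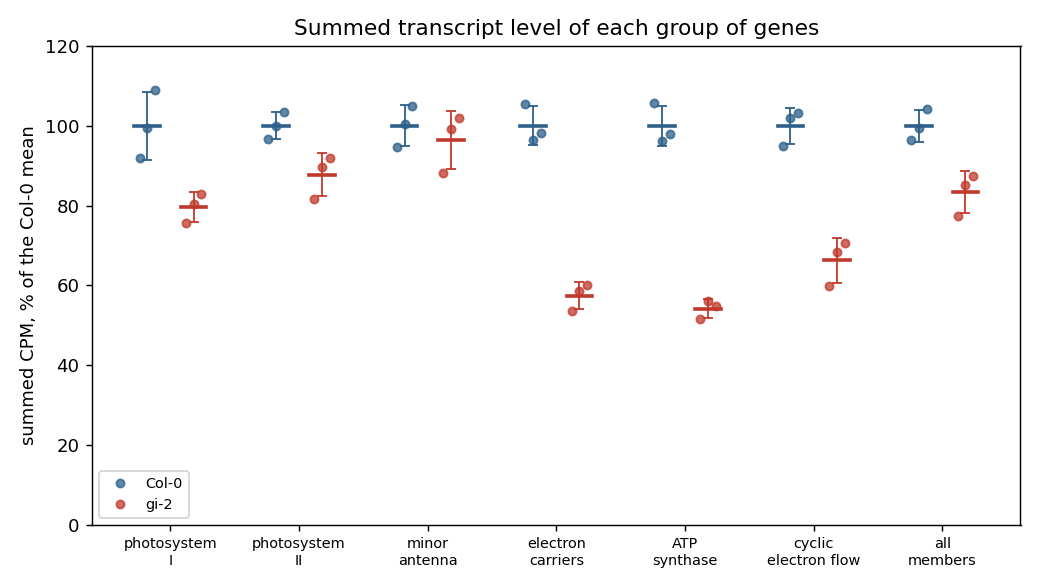
Summed TMM-scaled CPM of the genes of each of 6 complexes and of all members as a percentage of the Col-0 mean (vertical axis), with points for the 3 libraries of each genotype, lines for the mean and bars for the SD. The gi-2 points for electron carriers and ATP synthase lie between 51.51% and 60.01%, while those of the minor antenna lie between 88.12% and 101.9% and overlap the Col-0 points.

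The members include 10 pairs of paralogs with like products, and the balance within each pair was read inside a library, where scaling has no effect. Shares were taken on the RPKM scale, which is CPM per kilobase of gene length. For 8 of the 10 pairs the ratio did not overlap between genotypes. The share over other gene pairs was not computed, and single genes did not overlap in 45.3% of cases, so the count is a description of these pairs. In an exact two-sided permutation test over the 6 libraries each of these 8 had p = 0.1, the smallest that 3 against 3 allows, and an adjusted p of 0.125 over the 10 pairs, so the design could not reach the threshold.

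The largest shift was within PSAH. PSAH1 made up 41.1%, 39.5% and 40.2% of the pair in gi-2 and 21.4%, 24.5% and 25.2% in Col-0, and the pair's summed RPKM in gi-2 was 0.604 of that in Col-0. PSBQ1 made up 27.7%, 28.8% and 27.5% of its pair in gi-2 and 41.7%, 42.9% and 43.2% in Col-0. The sum of PSBQ1 and PSBQ2 was nearly level, at 2049 ± 111 RPKM in gi-2 and 2079.6 ± 101 RPKM in Col-0 (SD, n = 3 each), so the opposite changes of the copies left a ratio of 0.985.

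PSAE1 made up 29.7%, 28.1% and 28.7% of the PSAE pair in gi-2 and 40.8%, 38.1% and 39.9% in Col-0, with the pair sum at 1.115 times the Col-0 level. PSBO1 took 87.8%, 86.5% and 86.6% of its pair in gi-2 and 81.1%, 80.0% and 81.3% in Col-0. PGRL1A took 82.0%, 86.4% and 86.7% of its pair in gi-2 and 91.2%, 91.5% and 90.7% in Col-0. Smaller shifts without overlap were measured in the PSAD, FD and FNR pairs, with differences of the log2 ratio of 0.10, -0.34 and -0.40. The LHCB4.1 and LHCB4.2 pair (difference of -0.06, exact permutation p = 0.2) and the PETE pair (0.19, exact permutation p = 0.3) overlapped between genotypes.

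**Figure D4:**
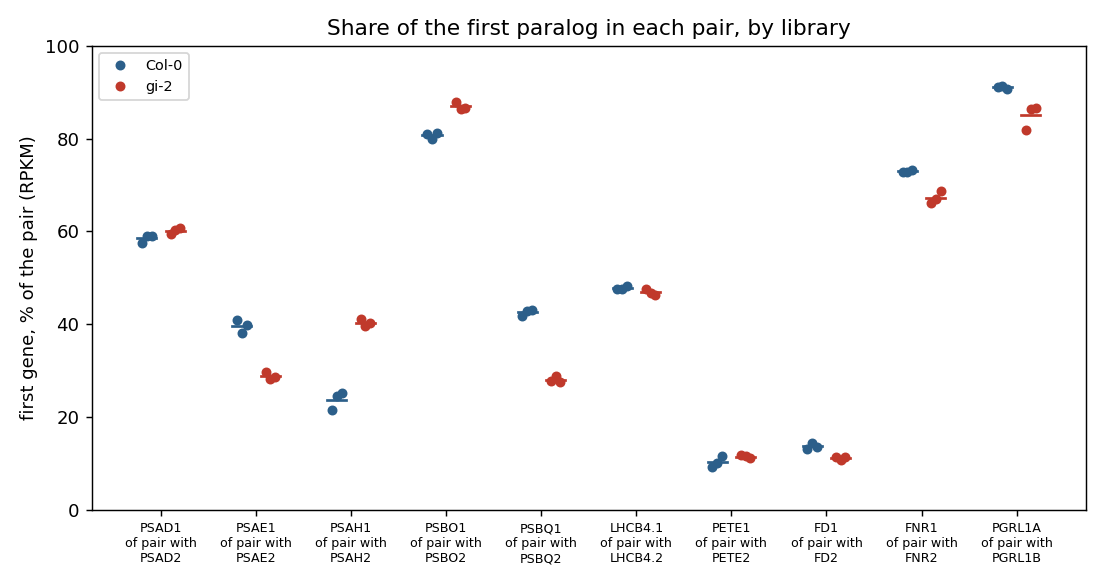
Share of the first gene in each of 10 paralog pairs (vertical axis, percent of the pair's summed RPKM) in the 3 Col-0 and 3 gi-2 libraries, with a point for each library and a line for the mean. PSAH1 takes 21.4% to 25.2% in Col-0 and 39.5% to 41.1% in gi-2, whereas PSBQ1 and PSAE1 take smaller shares in gi-2 and the LHCB4.1 and PETE1 points overlap.

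How reads mapping to several places were counted is not known, but no pair of these paralogs shared a stretch of 50 bases. Another limit is overlap between genes: 13 of the 41 members are overlapped by another annotated gene, 6 of them by over 100 bases (PSAE1, PSAG, PSAH1, PSAH2, LHCB6 and FNR1). Because the libraries carry no strand, the levels of those genes are uncertain to that extent. The gene ROPGEF13, which overlaps PSAH1 by 788 bases, was at 0 counts in all 6 libraries. How reads within an overlap were counted is not known, so that 0 does not show that PSAH1 was counted in full. Of the 50-base stretches of PSAH1 49.2% were shared with the overlapping gene on either strand, against 19.1% for PSAH2. The PSAH shares and pair sum are therefore uncertain as well. Other overlapping genes were expressed: AT5G66180, which overlaps FNR1 by 191 bases, had 698 to 750 counts in gi-2 and 468 to 538 counts in Col-0, and AT1G15810, which overlaps LHCB6 by 103 bases, had 349 to 544 counts per library. TMN1 (AT1G10950) overlaps FD1 by 78 bases on the same strand. TMN1 had 4580 to 4852 counts in gi-2 and 4001 to 4176 counts in Col-0. FD1 itself had 2075 to 2299 and 4320 to 4700 counts, so the level of FD1 is uncertain to that extent.

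Most of the members were abundant transcripts in these seedlings. By RPKM in Col-0, 18 of the 41 stood among the top 50 of 19676 genes, 32 among the top 200 and 38 among the top 1000. The other 3 were PSB28 at rank 1414, PGRL1B at rank 5247 and LHCB4.3 at rank 17196. PSBR, at 4118 ± 123 RPKM, LHCB5, at 3360.2 ± 124 RPKM, and PSBO1, at 3278 ± 122 RPKM, stood highest. The 6 members over 2000 RPKM in Col-0 (PSBO1, PSBP1, PSBR, LHCB4.1, LHCB4.2 and LHCB5) held 1 gene that fell and 5 that were not called, with a median log2 fold change of -0.04. Among the other 35 members 26 fell and 2 rose, with a median of -0.45. The level of 2000 RPKM was chosen after the values were seen, so this division is a description. High level alone did not mark the genes that were not called, since PETE2, at 1982 ± 152 RPKM in Col-0, fell to 998 ± 76.9 RPKM.

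**Figure D5:**
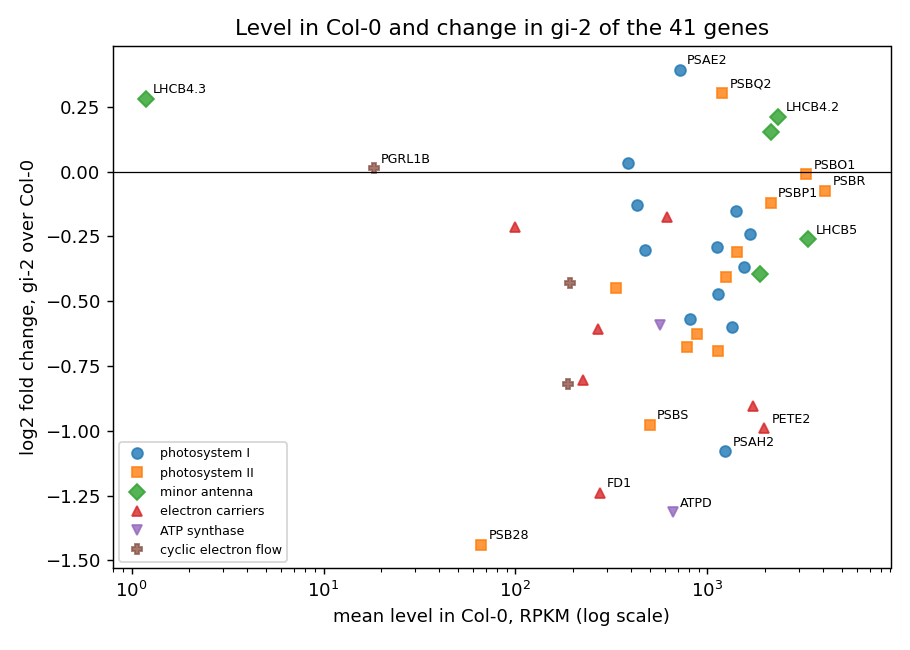
Mean level in Col-0 in RPKM (horizontal axis, log scale) against the log2 fold change, gi-2 over Col-0 (vertical axis), for each of the 41 genes, coloured by complex. The genes over 2000 RPKM lie between -0.26 and 0.21, whereas PSB28, ATPD, FD1 and PSAH2 lie below -1.0 at lower levels.

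Other genes of the thylakoid and of carbon fixation give the setting of these changes. The counts by list stand beside 16.2% of all genes tested that fell and 16.3% that rose. Among genes of at least 100 CPM on average 30.6% fell and 30.2% rose. Of 16 tested nuclear subunits of the chloroplast NADH dehydrogenase-like (NDH) complex, which serves the other route of cyclic flow, 15 fell and 1 rose, with a median log2 fold change of -0.76. PNSB1 (AT1G15980), a subunit of that complex, averaged 37.6 ± 3.37 CPM in gi-2 against 93.4 ± 6.72 CPM in Col-0 (SD over 3 libraries each), or -1.31 on the log2 scale (SE 0.09, adjusted p = 9.65e-08 by edgeR), and NDHU (AT5G21430) stood at -0.91 (SE 0.08). The gene that rose, named after its values were seen, was NDHS (AT4G23890), for the ferredoxin-binding subunit, at 0.47 (SE 0.11).

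Of 13 genes of thylakoid regulation 10 fell and 1 rose, with a median of -0.63, including CAS (AT5G23060), the thylakoid calcium-sensing receptor, at -1.51 (SE 0.08) and TLP18.3 (AT1G54780), a lumenal protein of photosystem II repair, at -0.94 (SE 0.07). The gene that rose, also named after its values were seen, was TAP38 (AT4G27800), for the phosphatase that acts on light-harvesting complex II, at 0.51 (SE 0.07). Of 19 assembly and repair factors 12 fell and none rose, with a median of -0.41, including HCF173 (AT1G16720), needed for translation of the D1 protein, at -0.92 (SE 0.10) and the thylakoid protease FTSH1 (AT1G50250) at -0.62 (SE 0.07). Among 10 tested further subunits and carriers 7 fell and none rose, with a median of -0.42, including PSBTN (AT3G21055), a small photosystem II subunit, at -0.54 (SE 0.09) and ATPG (AT4G32260), an ATP synthase stalk subunit, at -0.43 (SE 0.08).

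All 19 Calvin cycle genes fell, with a median of -0.80, including the Rubisco small subunit gene RBCS1B (AT5G38430) at -2.05 (SE 0.08) and the ribose phosphate isomerase gene RPI3 (AT3G04790) at -1.43 (SE 0.08). Of 6 photosystem I antenna genes 2 fell and none rose, with a median of -0.05, and their summed CPM in gi-2 was 104.5% of the Col-0 mean. The genes that fell were LHCA6 (AT1G19150) at -1.29 (SE 0.09) and LHCA5 (AT1G45474) at -0.54 (SE 0.11), whose products link photosystem I to the NDH complex. The share of this antenna list that was called, 33.3%, was near the 32.6% of all genes tested.

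Of 8 tested genes of the trimeric photosystem II antenna 6 fell and 2 rose, with a median of -0.51, and their summed CPM was 109.8% of the Col-0 mean. Without Col-0 replicate 2 only 1 was called higher. LHCB1.4 (AT2G34430) rose, with a log2 fold change of 1.43 (SE 0.14), as did LHCB1.3 (AT1G29930) at 0.34 (SE 0.09), and LHCB2.1 (AT2G05100) fell, with a log2 fold change of -0.74 (SE 0.08). LHCB1.3 made up most of the antenna sum, averaging 41118 of 73439 CPM in Col-0. Copies within the LHCB1 and RBCS families are closely alike in sequence, so the counts of single copies are uncertain where reads fit several. LHCB1.5 (AT2G34420), also on the antenna list, was at 0 CPM in all 6 libraries and was not tested. Calvin cycle transcripts summed to 58.19% of the Col-0 mean, close to the 57.46% of the electron carriers, and NDH transcripts to 65.04%. Of 4 greening regulators 3 fell, with a median of -0.30, a count that dropped to 1 without gi-2 replicate 1 and to 1 without Col-0 replicate 2. They included the GATA factors GNL (AT4G26150) at -1.06 (SE 0.17) and GNC (AT5G56860) at -0.33 (SE 0.10) and GLK2 (AT5G44190), an activator of photosynthesis genes, at -0.27 (SE 0.08). Every gene named from these lists except LHCB1.5 was called by edgeR at an adjusted p under 0.05. Differences between these lists were not tested.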

How the data were processed

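RNA was sequenced from 3 gi-2 and 3 Col-0 pools of whole seedlings; per the labels' protocols, libraries were non-directional, with 250 to 300 bp inserts. The authors deposited unscaled counts of reads per gene. Per the submitters' processing notes, the tools were STAR 2.5.5, HTSeq 0.6.1 and DESeq2, with build TAIR10; how strand and multi-mapping reads were handled is not given in the sources used here. In 24 of 32833 rows the annotation was shifted and was read around, with counts intact and 0 members affected, and 0 rows named no gene. Positions are those deposited (TAIR10), and 41 of 41 members had the same start and end in RefSeq TAIR10.1.

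The genotypes were compared with edgeR 4.0.16 under R 4.3.3 (TMM factors; filterByExpr with minimum count 10 and minimum total 15, quasi-likelihood F test, genotype as the only term) over 19699 genes, and a Benjamini-Hochberg adjusted p under 0.05 was a call. CPM are deposited counts relative to the TMM-scaled library size, and RPKM are CPM per kilobase of the deposited gene length. Each SE is implied by the F statistic. A floor of 3 counts was 0.126 to 0.166 CPM, covering counting error only. Replicates differed by more than sampling noise (chi-square per degree of freedom 4.96 to 15.6). No label says whether the pools came from separate growths, so a p-value here reflects only how far these pools vary, which may be technical. On counts simulated for gi-2 against Col-0 (19524 genes), the test recovered 10% of 1.25-fold, 46% of 1.5-fold, 88% of 2-fold and 100% of 4-fold changes. The simulation gave every gene the same dispersion and changed only 50 genes at each fold, drawn from a wide range of levels. Far more genes were called in the data, and most members are abundant, so these rates do not give the power for the members.

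The members and gene lists were chosen with earlier results of these data known. Named genes were all 41 members, GI and up to 2 called genes with the smallest adjusted p from each other pathway list. ROPGEF13 and the other overlapping genes, NDHS, TAP38, LHCB1.3, LHCB1.5, GNC and the single marker genes were named after their values were seen. Alternatives were RLE, upper-quartile and library-total scaling, DESeq2 1.42.0, limma-voom (limma 3.58.1), other low-count filters, a replicate block and each library left out. Further alternatives, chosen after seeing the data, left out gi-2 replicate 2 with Col-0 replicate 1, or computed TMM without photosynthesis genes.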

Additional observations from a re-analysis of the deposited data

How the results depend on the processing

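Of the 29 called members, 23 were called in all 16 alternatives, and 6 (PSAE1, PSAF, PSBQ2, PSBX, LHCB5 and FNR2) lost the call only when a library was left out. Without single libraries, 22 to 30 members were called lower and 1 to 3 higher, the 1 being PSAE2 without gi-2 replicate 3. PSAL, PSAO, LHCB4.2 and PETC, not called, were called in at least 1 alternative. The sign turned for 4 members whose intervals span 0: PSBO1 (0.013 with library totals only, and -0.047 to 0.026 without single libraries), PSAH1 (-0.078 to 0.11, and -0.07 when gi-2 replicate 2 was left out together with Col-0 replicate 1), LHCB4.3 (-0.015 to 0.52) and PGRL1B (-0.043 to 0.065). DESeq2 called 29 members lower. With the replicate number as a block, 28 members were called lower and 3 higher, the block gaining PSAO (adjusted p = 0.0229 by edgeR) and LHCB4.2 (0.0291). Over all genes tested, same-numbered libraries correlated only weakly, at 0.0216, 0.0227 and 0.0294. Every library correlated best with its own number, a hint from the data only. Among the members, however, replicate 1 was most often the lowest library and replicate 3 most often the highest, in both genotypes. Not every complex followed this in Col-0. There replicate 1 had the highest sum for the electron carriers (6451 CPM) and for the ATP synthase (1714 CPM). Whether same-numbered libraries shared an effect on the members was not tested. The largest shift of the all-gene median by a scaling was 0.0246 (library totals). At this depth the sign of LHCB4.3 could not be resolved. Changes of 1.5-fold or less were often missed on simulated counts, but the simulation did not match the level of the members. Some members were called in every alternative at a smaller change, such as PSAK at 1.289-fold.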
